A study of Mus musculus with 120 samples.

Results

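The genes described here are 37 regulators of mitochondrial biogenesis and of mitochondrial DNA (mtDNA) expression. They were taken by name from the deposited count tables of soleus muscle and heart, and each of the 37 was found among the 53656 genes of either table. All 37 also passed the filter on low counts, which kept 13935 genes in soleus and 15723 in heart. They fall into 7 roles, namely coactivators and nuclear receptors, respiratory factors, energy sensors, mtDNA packaging and transcription, mtDNA replication, mitochondrial RNA stability and processing, and nucleotide supply.

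Mitochondria are made from the products of nuclear genes and of a small circular genome that cells hold in many copies. In muscle, the coactivator PGC-1alpha (Ppargc1a) acts with nuclear receptors of the ERR and PPAR families and with the respiratory factors NRF1 and GABP to raise transcription of nuclear genes for mitochondrial proteins, and it responds to exercise through AMP-activated kinase and sirtuins. Inside the organelle, Tfam packages mtDNA and, with Tfb2m and the polymerase Polrmt, starts transcription of long RNAs, which are then cut, modified and protected by RNA-binding proteins such as Lrpprc and Slirp. Replication rests on the polymerase gamma subunits Polg and Polg2 and on the single-strand binding protein Ssbp1, and it draws on nucleotides made by kinases such as Tk2 and Dguok.

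The mice came from 4 strains on the C57BL/6EiJ (Nnt+/+) background. ANT1 mice are Slc25a4-/-, which removes an ADP/ATP carrier of the inner mitochondrial membrane. The other 3 strains carry a mutation in mtDNA. These are ND5 (m.12352C>T, S204F), ND6 (m.13997G>A, P25L), both in complex I subunits, and CO1 (m.6589T>C, V421A), in a subunit of complex IV. Each group therefore carries a mitochondrial mutation, and the control strain named in the series is not analysed here. From 16 weeks of age, mice were either handled only (non-exercised) or run for 45 min every 2nd day at 50% of their maximal capacity for 8 weeks, and tissues were collected 6 days past the final run. Each tissue had 6 libraries per strain and arm, 48 in all. Strain comparisons below set the 6 ANT1 libraries of an arm against the mean of the 3 mtDNA strains, with 18 libraries, and the comparisons with single strains use the same ANT1 libraries again.

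Library totals were 10.2 to 20.7 M (1000000 counts) in soleus and 19.7 to 26.5 M in heart. Levels per library are given as CPM, counts per 1000000 counts of the library, scaled by TMM, a method that sets most genes equal between libraries. The targeted gene Slc25a4 stood at 4.96 to 22.1 CPM in the 12 ANT1 soleus libraries against 2170 to 4021 CPM in the 36 others, and at 1.89 to 6.13 CPM in ANT1 hearts against 471 to 3892 CPM. Hearts differed in what they contained, because the summed level of 6 atrial markers was under 500 CPM in 22 libraries and reached 36465 CPM in the highest. These 22 were spread unevenly, with 3 in either ANT1 arm, 2 in either ND5 arm, 2 in non-exercised ND6, none in exercised ND6, and 5 in either CO1 arm. The heart library of ND5 mouse B80 stood apart with 9.23% mtDNA-encoded counts, ventricular markers at 4021 CPM and connective tissue markers at 3448 CPM, and the labels give this mouse code opposite treatments in the 2 tissues. In bulk tissue, fewer cells of a type and less RNA per cell cannot be told apart.

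Several of the members carry, near their start, sequences known from studies of the respiratory factors. Exact matches on either strand were counted in windows from 250 bases before to 50 after the RefSeq start (GRCm38.p6), which were on hand for 33 of the 37 members. The NRF1 motif GCGCATGC occurred in 4 of 33 (12.1%), against 3.05% of all 27025 genes with such a window. CCGGAAG, the core bound by ETS factors such as GABP, occurred in 12 of 33 (36.4%) against 9.93%. AAGATGGC, a YY1 core, occurred in 5 of 33 (15.2%) against 3.19%, and the ERR element TCAAGGTCA in none of the 33 against 0.466%. The ETS core occurred in 8 of the 17 windows of members called higher in ANT1 soleus without exercise, in 0 of 5 of those called lower and in 4 of 11 of the others. For the NRF1 motif these counts were 3 of 17, 0 of 5 and 1 of 11, and for the YY1 core 2 of 17, 1 of 5 and 2 of 11. A match describes these letters and is not shown to be a site. The 27025 genes include many that did not pass the count filter, which all members passed. Shares among genes of like expression were not counted. The windows below belong to members higher in ANT1 soleus and are shown because the motif lies before the start and outside annotated exons. Matches closer to the start were not shown where they overlap an exon, such as the ETS core 9 bases before the start of Tefm. Capitals mark the motif or its reverse complement, each window is read in the direction of its gene, and all 3 genes lie on the minus strand.
Polrmt, chr10:79746667-79746754, NRF1 motif 133 bases before the start: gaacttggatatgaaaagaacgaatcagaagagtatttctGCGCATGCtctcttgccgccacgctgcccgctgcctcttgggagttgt
Polrmt, chr10:79746582-79746664, ETS core 43 bases before the start: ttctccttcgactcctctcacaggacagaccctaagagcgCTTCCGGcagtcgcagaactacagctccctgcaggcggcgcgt
Esrra, chr19:6921814-6921882, NRF1 motif 34 bases before the start: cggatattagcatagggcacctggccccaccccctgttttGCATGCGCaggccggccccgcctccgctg
Polg2, chr11:106779538-106779606, ETS core 29 bases before the start: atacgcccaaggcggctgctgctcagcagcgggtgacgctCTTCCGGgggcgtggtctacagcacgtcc

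Levels of different genes were compared per length, in the deposited FPKM averaged over 48 libraries. Fastk, which protects the mRNA of ND6, led in soleus at 89.9 FPKM, followed by Hsd17b10, a subunit of mitochondrial RNase P, at 78 and Esrra, the receptor ERR-alpha, at 75.3. Ppargc1a came next on this scale at 46.8 FPKM and varied from 7.0 to 113 between libraries, whereas Fastk varied only from 77.9 to 103. In heart the same 4 genes led, with Hsd17b10 at 93.8, Fastk at 89.5, Esrra at 60.6 and Ppargc1a at 58.3 FPKM, the last ranging from 5.12 to 150. Lrpprc followed in both tissues at 40.2 and 41.6 FPKM. The lowest members were Polg2, at 1.90 FPKM in soleus and 1.94 in heart, with Tk2 next in soleus at 2.01 and Ppargc1b in heart at 2.76. Neighbours in this order overlapped in range, as Hsd17b10 (64.5 to 105 FPKM) and Esrra (47.5 to 109 FPKM) did in soleus. Rescaling FPKM to a fixed sum left each soleus rank in place and exchanged only Nrf1 and Prkaa1 in heart.

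**Figure D1:**
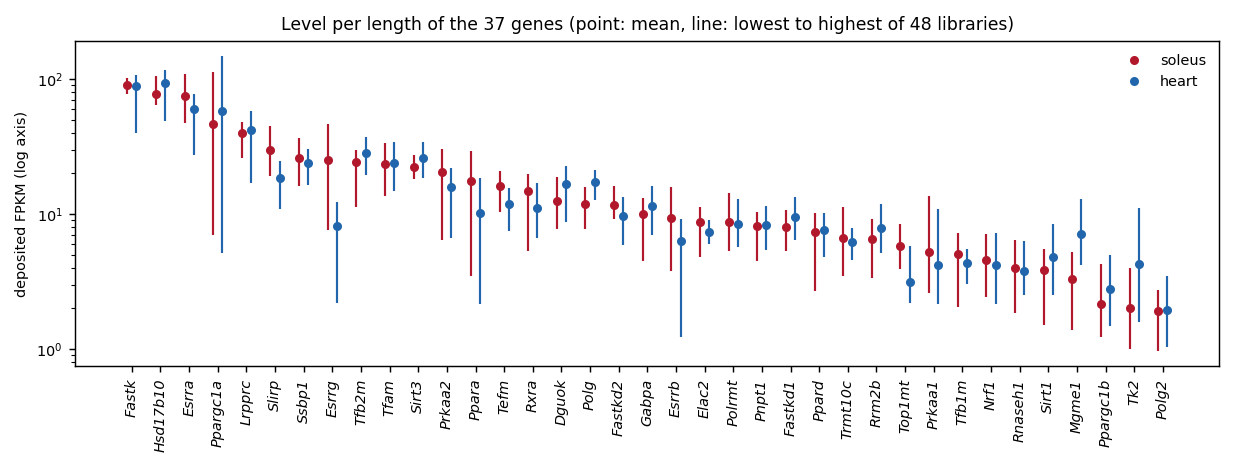
Deposited FPKM of each of the 37 genes in soleus and heart on a log axis, ordered by the soleus mean, with points for the mean and lines from the lowest to the highest of 48 libraries. Fastk and Hsd17b10 lead in both tissues, and Ppargc1a spans from 7.0 to 113 FPKM in soleus and from 5.12 to 150 FPKM in heart.

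In non-exercised soleus, 18 of the 37 members were higher and 5 lower in ANT1 than in the mean of the mtDNA strains (edgeR quasi-likelihood test, adjusted p under 0.05 over all genes). Among all genes tested 22.4% were called higher and 25.4% lower, and the median log2 difference was 0.17 over the members against -0.04 over all genes. The counts by role were not tested against each other. RNA stability and processing had 8 of 9 members higher, packaging and transcription 4 of 5, and replication 3 of 6, with none lower in these 3 groups. Energy sensors had 1 of 4 higher and 3 lower, coactivators and nuclear receptors 2 of 8 higher and 2 lower, and neither of the 2 respiratory factors nor any of the 3 nucleotide supply genes was called. These directions are relative to the other nuclear transcripts of a library. Per library total, without the TMM factor, the median of all genes moved to -0.69 and only Hsd17b10 remained higher (log2 0.13, adjusted p = 0.0301), while 29 members were lower, among them Tfam, Tfb2m, Polrmt, Tefm, Ssbp1 and Slirp. On that scale 2.73% of all genes were called higher and 83.1% lower, so the count of members called lower lies near the share of all genes.

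Among the members for mitochondrial RNA, Hsd17b10, at chromosome X, 152001845 to 152004442 in GRCm38, ranged from 71.4 to 86.5 CPM in ANT1 with a median of 79.7, against 35.4 to 53.7 with a median of 46.8 in the 18 libraries of the mtDNA strains. Every ANT1 library was above every other, and the log2 difference was 0.78 (SE 0.06, edgeR adjusted p = 5.84e-15). Fastk stood at 173 to 201 CPM (median 186) against 98.8 to 144 (median 120), again without overlap, a difference of 0.62 (SE 0.06, adjusted p = 3.99e-12). Lrpprc, which with Slirp keeps mitochondrial mRNAs stable and polyadenylated, ranged from 175 to 259 CPM (median 228) in ANT1 against 102 to 172 (median 152). Its libraries also did not overlap, and the difference was 0.62 (SE 0.08, adjusted p = 2.99e-08). Slirp rose by 0.42 (SE 0.08), Fastkd2, which acts in mitochondrial ribosome assembly, by 0.50 (SE 0.09) and Fastkd1 by 0.48 (SE 0.12). The exonuclease component Pnpt1 and the tRNA 3′ processing enzyme Elac2 rose by 0.17 each (SE 0.06), calls lost without ANT1 mouse A58 for Pnpt1 and without A18 or A88 for Elac2, and Trmt10c, the partner of Hsd17b10 in RNase P, was at 0.04 (SE 0.09) and not called. Exons of Fastk overlap Slc4a2 on the opposite strand, and since the labels do not say that strand was kept, reads of such pairs cannot be told apart. In all, 13 members have such a neighbour, Esrra, Sirt3, Elac2 and Polg2 among them, while Hsd17b10, Lrpprc, Ppargc1a, Polrmt and Tfam have none.

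Among the packaging and transcription genes, Tfam, the main packaging protein of mtDNA, was at 39.1 to 48.6 CPM (median 44) in ANT1 against 31.4 to 44.5 (median 37.2), and 13 of the 18 other libraries lay below the lowest ANT1 library. That is a log2 difference of 0.22 (SE 0.06, edgeR adjusted p = 0.00417). Polrmt, the RNA polymerase, reached 15.4 to 25.2 CPM (median 24.4) against 13.4 to 22.8 (median 18), so the groups overlapped widely, and it rose by 0.32 (SE 0.09, adjusted p = 0.00218). The elongation factor Tefm ranged from 18.2 to 22.1 CPM against 10.7 to 17.4, with no overlap and a difference of 0.43 (SE 0.07, adjusted p = 5.79e-06). Tfb2m, which opens the promoter for Polrmt, was at 39.9 to 65.3 CPM (median 56.7) against 37.6 to 54.8 (median 48.4) and rose by 0.19 (SE 0.07, adjusted p = 0.0177), with 2 of 18 other libraries below the lowest ANT1 library. That call was lost without ANT1 mouse A58 (0.15, adjusted p = 0.0876). Its relative Tfb1m, an rRNA methyltransferase, was at 0.17 (SE 0.11) and not called. For replication, Ssbp1 ranged from 23.1 to 30.3 CPM against 16.8 to 22.2, without overlap, and rose by 0.39 (SE 0.06, adjusted p = 2.17e-06). Top1mt, the mitochondrial topoisomerase, rose by 0.32 (SE 0.08) and Polg2, the accessory subunit of the polymerase, by 0.34 (SE 0.13), a call lost without ANT1 mouse A82 (0.26). The catalytic subunit Polg stood at 0.05 (SE 0.06), and the nuclease Mgme1 at -0.25 (SE 0.11, adjusted p = 0.0561).

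Upstream regulators were called in both directions. Ppargc1a had the largest fitted difference of the members, 0.93 with an SE of 0.31 (edgeR adjusted p = 0.0119), but the strains behind it differed. It stood at 182 to 528 CPM (median 327) in ANT1, at 48.6 to 194 (median 74.1) in ND5, at 38.8 to 422 (median 180) in ND6 and at 150 to 443 (median 289) in CO1. ANT1 and CO1 therefore overlapped over most of their ranges, while 5 of 6 ND5 libraries lay below 80 CPM. Without the ANT1 library of mouse A4 the difference was 0.77 and its adjusted p 0.0547. Esrra, through which PGC-1alpha acts on many mitochondrial genes, rose by 0.62 (SE 0.09, adjusted p = 1.39e-07), with 141 to 216 CPM against 93.2 to 148 and 16 of 18 other libraries below the lowest ANT1 library. Its relative Esrrg was lower by a log2 difference of -0.50 (SE 0.21, adjusted p = 0.0480), a call lost in 14 of the 24 fits that each left out 1 library. Rxra, the shared partner of nuclear receptors, ranged from 39.8 to 68 CPM (median 56.6) in ANT1 against 54.8 to 80 (median 71.1). These overlapped, with 13 of 18 other libraries above the highest of ANT1, and the difference was -0.32 (SE 0.09, adjusted p = 0.00200). Ppargc1b (0.24, SE 0.18), Ppara (0.02, SE 0.25), Ppard (-0.22, SE 0.10) and Esrrb (0.07, SE 0.13) were not called. Nrf1, the respiratory factor, ranged from 7.99 to 10.5 CPM (median 9.24) against 9.15 to 12.1 (median 10.3), and Gabpa, the DNA-binding subunit of GABP, from 33.5 to 49.4 (median 42) against 36.0 to 49.2 (median 42.5). Both overlapped, at -0.15 (SE 0.08) and -0.04 (SE 0.07), and neither was called.

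The energy sensors moved in both directions. Sirt3, the main deacetylase of the mitochondrial matrix, was at 27.2 to 36.6 CPM (median 31.0) in ANT1 against 13.8 to 23.9 (median 18.2), with no overlap and a log2 difference of 0.75 (SE 0.09, edgeR adjusted p = 8.79e-10). Sirt1, the nuclear deacetylase that acts on PGC-1alpha, moved the other way, with 8.00 to 13.1 CPM (median 10.1) against 11.2 to 16.1 (median 13.2). Its groups overlapped, 10 of the 18 other libraries lay above the highest ANT1 library, and the difference was -0.39 (SE 0.09, adjusted p = 0.000565). Of the catalytic subunits of AMP-activated kinase, Prkaa2, the main form of muscle, was at 80.6 to 171 CPM (median 131) against 117 to 189 (median 159). The groups overlapped, with 6 of 18 other libraries above the highest of ANT1, and the difference was -0.37 (SE 0.12, adjusted p = 0.0124). Prkaa1 was at -0.30 (SE 0.12, adjusted p = 0.0295), a call lost in 4 of 24 fits (without ANT1 mouse A18, A4, A58 or A82, at -0.30 to -0.26). Leaving out ANT1 mouse A75 or A82 removed the Prkaa2 call (-0.27 and -0.26) and brought the members called lower from 5 to 3 and 2.

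**Figure D2:**
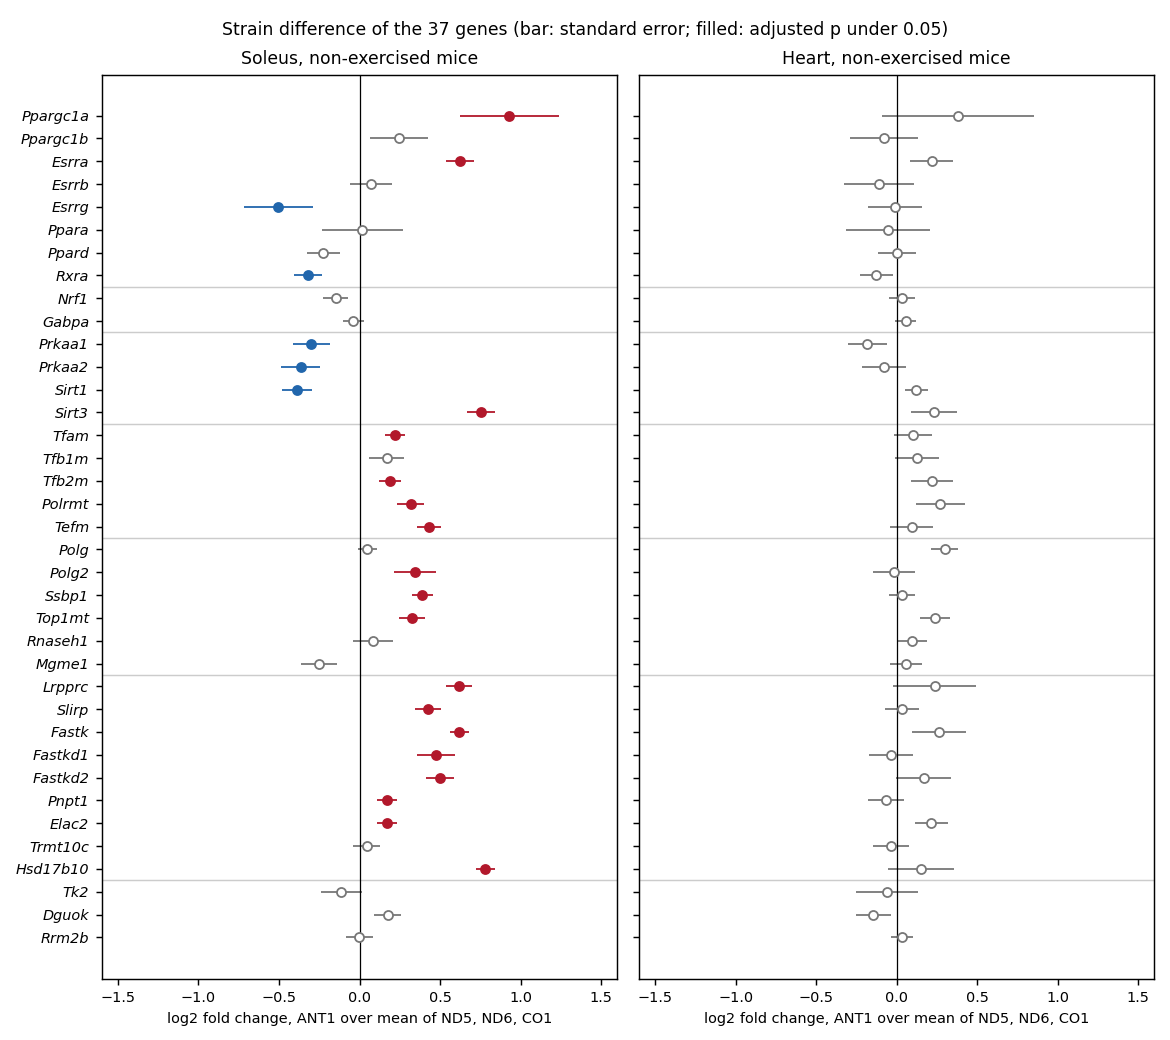
Log2 fold change of ANT1 over the mean of ND5, ND6 and CO1 in non-exercised mice for each of the 37 genes, ordered by role, with bars for the standard error and filled points for an adjusted p under 0.05. In soleus 18 points are filled to the right of 0 and 5 to the left, and in heart none is filled. Where library totals are not rescaled, 1 and 29 members are called in soleus, against 2.73% and 83.1% of all genes.

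ANT1 soleus also differed in markers of other cells. Of 12 connective tissue and tendon markers 11 were lower and none higher in ANT1, and their sum was 321 to 763 CPM in ANT1 against 1191 to 5334 in ND5, 497 to 1232 in ND6 and 617 to 2541 in CO1. Macrophage markers had 6 of 8 lower, fast-fibre markers 5 of 10 lower and 2 higher, slow-fibre markers 5 of 8 lower and 1 higher, and all 5 erythroid markers were higher. With the fast-fibre and the connective sums as covariates, 9 members were higher and 7 lower, against 16.5% and 17.8% of all genes. Hsd17b10 (0.70), Sirt3 (0.58), Slirp (0.49), Ssbp1 (0.45), Fastk (0.43), Esrra (0.40), Lrpprc (0.37), Tefm (0.33) and Fastkd2 (0.25) were the 9. Of packaging and transcription genes Tefm alone remained called, 1 of 5. The same model left Tfam at 0.09 (adjusted p = 0.382), Polrmt at 0.14 (0.308), Tfb2m at -0.02 (0.851) and Ppargc1a at 1.12 (0.0588). Nrf1, at -0.32 (0.00920), was among the 7, as were Prkaa2, Rxra, Ppard, Mgme1, Sirt1 and Prkaa1.

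**Figure D3:**
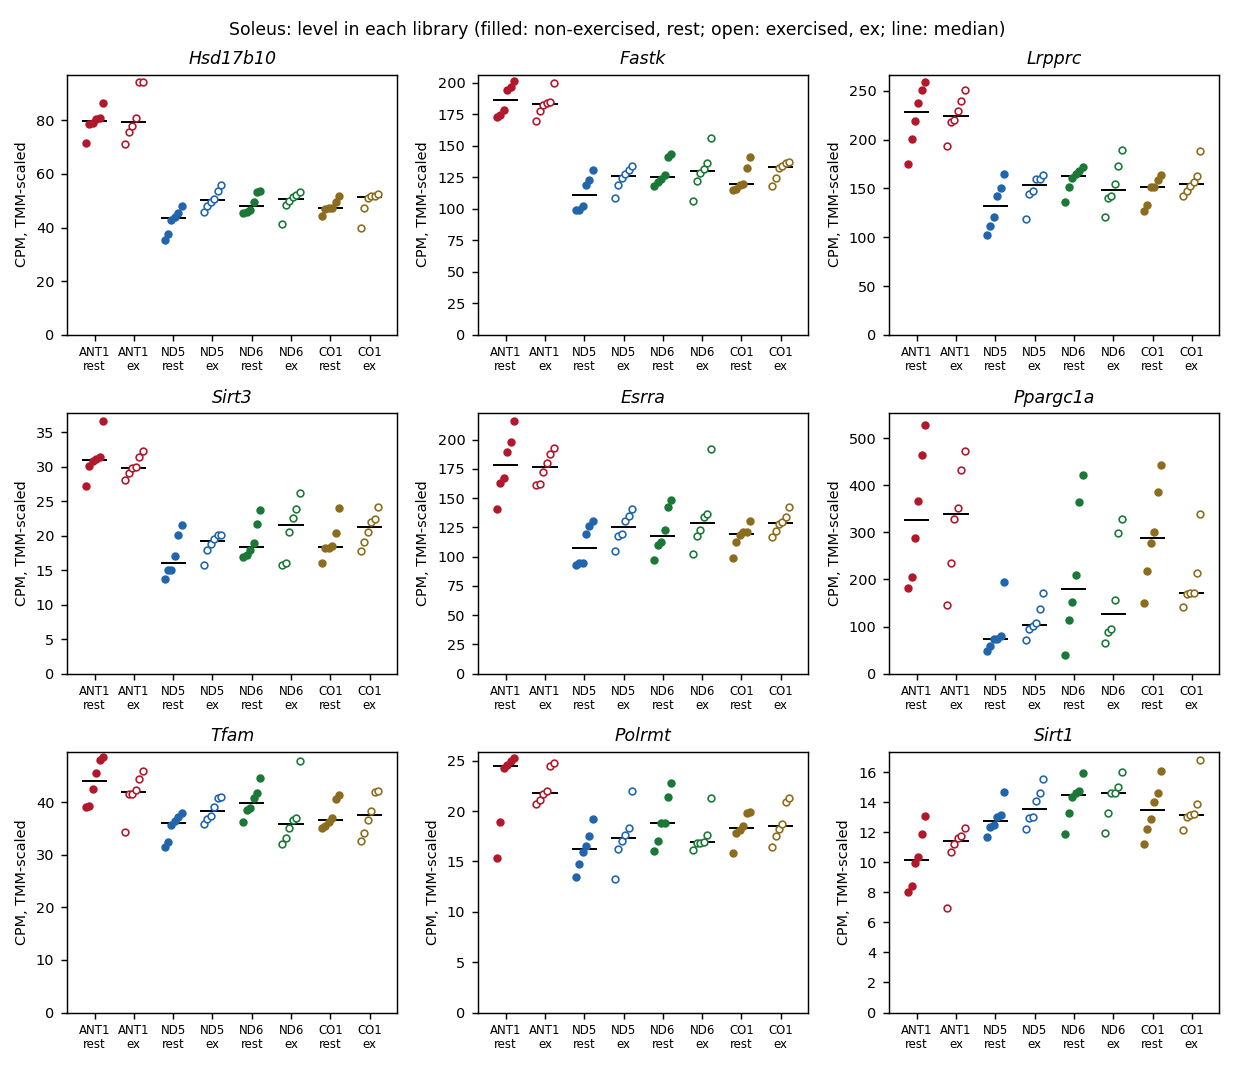
TMM-scaled CPM of 9 members in each soleus library by strain and arm, filled for non-exercised and open for exercised mice, with a line at the median of 6. On this scale all 6 ANT1 libraries of an arm lie above the 18 others of that arm for Hsd17b10, Fastk, Lrpprc and Sirt3, while Ppargc1a, Tfam, Polrmt, Esrra and Sirt1 overlap.

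The picture was similar in exercised soleus, where 17 members were higher and 5 lower in ANT1, against 21.1% and 22.4% of all genes. Of the calls, 13 higher and 4 lower were shared with the non-exercised arm, and the share of all genes called in both arms was not counted. Ppargc1b, the relative of PGC-1alpha, was called only here at 0.59 (SE 0.18, edgeR adjusted p = 0.00590), with Rnaseh1 (0.35), Tfb1m (0.27) and Dguok (0.21). Tfam (0.15, adjusted p = 0.0576), Tfb2m, Tefm, Ssbp1 and Polg2 were called only in the non-exercised arm. The ANT1 difference was not called as different between the arms for any member. Nrf1 was lower at -0.20 (adjusted p = 0.0445). In the non-exercised arm the libraries of 6 members lay wholly above the 18 others (Sirt3, Tefm, Ssbp1, Lrpprc, Fastk and Hsd17b10), against 6.62% of all genes, and in the exercised arm those of 5 (Sirt3, Lrpprc, Fastk, Fastkd2 and Hsd17b10), against 5.19%. For no member did all ANT1 libraries lie below the others, against 3.34% and 3.36% of all genes.

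Set against each strain alone in the non-exercised arm, ANT1 had 17 members higher and 2 lower than ND5 (22.3% and 26.7% of all genes), 11 and 4 than ND6 (15.8% and 15.1%), and 13 and 4 than CO1 (17% and 18.2%). Against all 3 strains, 11 members were higher (Esrra, Sirt3, Tefm, Ssbp1, Top1mt, Lrpprc, Slirp, Fastk, Fastkd1, Fastkd2 and Hsd17b10) and Sirt1 was lower. The share of all genes called against all 3 was not counted, and the 3 comparisons use the same ANT1 libraries. Ppargc1a was higher only against ND5, at 1.95 (edgeR adjusted p = 0.000128). Tfam was higher than in ND5 (0.32) and CO1 (0.22). Among the mtDNA strains, ND5 had 4 members lower than ND6 and none higher (4.51% and 9.97% of all genes). These were Ppargc1a (-1.30, edgeR adjusted p = 0.0264), Fastkd2 (-0.35), Rrm2b, a ribonucleotide reductase subunit (-0.30), and Hsd17b10 (-0.22). The connective marker sum was 1191 to 5334 CPM in these ND5 libraries against 497 to 1232 in ND6. Whether connective cells carry these differences was not tested. ND5 against CO1 and ND6 against CO1 gave no called gene at all with edgeR, with 3080 and 286 genes at an unadjusted p under 0.05.

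Other genes of the same pathways were counted from lists chosen by function, beside 22.4% of all genes called higher and 25.4% lower. Of 28 other genes for mtDNA transcription and RNA processing, 17 were higher and none lower in non-exercised ANT1 soleus, with a median of 0.25. Tbrg4 (Fastkd4), a relative of Fastk, rose by 0.82 (SE 0.08) and the RNA methyltransferase Nsun2 by 0.51 (SE 0.05). Of 15 other mtDNA maintenance genes, 3 were higher, the nuclease Endog at 0.77 (SE 0.08), Atad3a at 0.63 (SE 0.10) and the protease Lonp1 at 0.40 (SE 0.06), and 2 lower, Primpol at -0.96 (SE 0.24) and Lig3 at -0.28 (SE 0.09). Of 30 other regulators and AMP-activated kinase subunits, 7 were higher and 9 lower, with the mitochondrial deacylase Sirt5 at 1.03 (SE 0.07), the kinase subunit Prkag1 at 0.37 (SE 0.06), the subunit Prkag3, typical of glycolytic fibres, at -1.6 (SE 0.21) and the thyroid hormone receptor Thrb at -0.51 (SE 0.13). The counts of the maintenance and the regulator lists lie near the shares of all genes. In heart none of the genes of these 3 lists was called in that comparison.

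The share of counts that came from mtDNA-encoded genes set ANT1 soleus apart. It was 35.8% to 47.6% (mean 39.0% ± 4.34, SD, n = 6) in non-exercised ANT1, against strain means of 15.7% in ND5, 20.7% in ND6 and 18.5% in CO1. All 18 libraries of the other strains in that arm lay below the lowest of ANT1. The difference of 20.7 points had p = 7.43e-06 in an exact two-sided permutation test (adjusted p = 8.92e-05 over 24 such tests), the smallest p this design allows. In exercised soleus the means were 37.9% and 19.7%, a difference of 18.2 points with the same p. All 13 mtDNA-encoded mRNAs were higher in ANT1 soleus, with a median log2 difference of 1.64, with mt-Co1 at 1.92 (SE 0.10), mt-Nd5 at 1.54 (SE 0.12) and mt-Nd6 at 1.51. These levels do not check the point mutations. The largest called difference of a member for mtDNA expression, 0.78 for Hsd17b10, is smaller than that median. Non-exercised ND5 soleus had 5.03 points less than ND6 (adjusted p = 0.0282, exact permutation test). It also had more connective tissue transcripts, and whether those carry the difference was not tested. In heart the shares were 33.7% in ANT1 against 25.3% without exercise, a difference of 8.40 points, and 31.3% against 24.8% with exercise, 6.41 points (adjusted p = 0.0282 for both, permutation test), with overlapping libraries. Without exercise, edgeR called none of mt-Co1 (0.66, adjusted p = 0.281), mt-Nd5 (0.60, 0.309) and mt-Nd6 (0.57, 0.319) in heart. Within groups the heart share fell as the atrial (Pearson r = -0.71) and connective (-0.85) marker sums rose. Whether heart content carries the difference in share was not tested. The libraries were enriched for polyadenylated RNA, so a share of counts also depends on the polyadenylation of mitochondrial RNA.

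Since mtDNA transcripts filled a larger part of ANT1 libraries, units that keep the library total show other contrasts. In deposited FPKM, Fastk was at 88.5 ± 6.10 (SD, n = 6) in non-exercised ANT1 soleus and at 88.9 ± 5.55 in ND5, 89.5 ± 7.45 in ND6 and 90 ± 5.87 in CO1, which differ by less than their spread. Lrpprc was at 39.4 ± 7.58 FPKM against 38.8 ± 4.45, 41.3 ± 3.66 and 40.2 ± 3.09. Hsd17b10 remained somewhat above, at 81.2 ± 4.68 against 73 ± 4.65, 74.7 ± 5.45 and 76.5 ± 2.58.

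**Figure D4:**
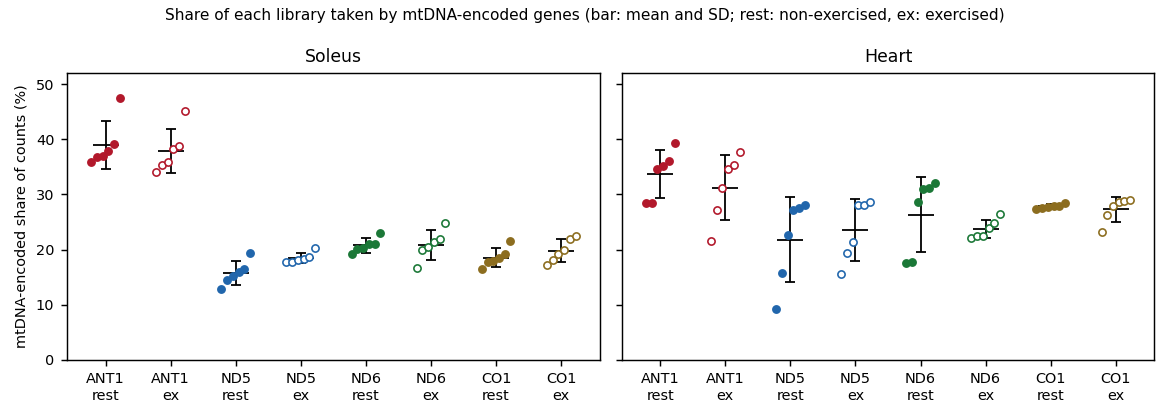
Percent of counts from mtDNA-encoded genes in each library by strain and arm, for soleus and heart, with bars for the mean and SD of 6 libraries. ANT1 soleus lies between 34.0% and 47.6%, above all other soleus libraries, while heart groups overlap and a single ND5 heart library lies at 9.23%.

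No training difference of a member passed adjustment over all genes in either tissue. On average over the 4 strains, edgeR called 0 of 13935 genes in soleus and 0 of 15723 in heart (0% of all genes each), with 536 and 538 at an unadjusted p under 0.05, and DESeq2 called 0 and 1 with no member called. Member estimates of that mean lay between -0.14 (Ppargc1a) and 0.11 (Ppard) in soleus, with a median SE of 0.05, and between -0.37 (Ppargc1a) and 0.14 (Tk2) in heart, with a median SE of 0.08. Ppargc1a was the least precise, with an SE of 0.20 in soleus and 0.30 in heart. In CO1 soleus it stood at 150 to 443 CPM (median 289) without and at 141 to 339 (median 172) with training, a difference of -0.55 (SE 0.40), and in ND5 at 48.6 to 194 (median 74.1) and 71.9 to 170 (median 104), a difference of 0.37 (SE 0.40). Both pairs overlapped. Hsd17b10 in ND5 soleus was at 35.4 to 47.9 CPM (median 43.5) without and 45.9 to 56.1 (median 50.1) with training, a difference of 0.26 (SE 0.08). Its edgeR adjusted p was 0.125. Sirt1 in ANT1 heart was at 16.3 to 19.5 CPM (median 17.7) without and 11.5 to 15.4 (median 14.2) with training. The libraries did not overlap. The difference of -0.36 (SE 0.09) had an edgeR adjusted p of 1.0. The training effect of ANT1 minus that of the mtDNA strains passed for no member, the lowest adjusted p being 1.0 in either tissue. In exercised soleus, 3 responders and 3 non-responders per strain, as labelled, gave no called gene with edgeR or DESeq2 (0% of all genes, 622 and 562 at an unadjusted p under 0.05), and member differences lay between -0.41 (Ppargc1a, SE 0.24) and 0.30 (Ppargc1b). The mtDNA share changed in no strain after adjustment either, ND5 soleus coming nearest with 2.75 points more (adjusted p = 0.0594, exact permutation test).

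In heart without exercise, no member was called by edgeR or DESeq2, where 0.617% of all genes were higher and 0.299% lower, 1820 genes having an unadjusted p under 0.05. Lrpprc ranged from 115 to 271 CPM (median 228) in ANT1 and from 48.5 to 237 (median 211) in the 18 others, and Hsd17b10 from 37.6 to 96.4 (median 86.3) and 27 to 83.5 (median 78.1). Tfb2m stood at 0.22 (SE 0.13) and Polrmt at 0.27 (SE 0.15), estimates like those in soleus with larger errors. No member separated the groups in either arm, where 0.102% and 0.0827% of all genes had all ANT1 hearts above and 0.0763% and 0.127% all below. With exercise 2 members were higher and 1 lower, against 3.45% and 1.32% of all genes, counts that lie near those shares. Strain fits with atrial covariates were run for the non-exercised arm only, so heart content was not adjusted for in these calls. Polg was at 57.2 to 86.3 CPM (median 72.3) against 41.8 to 67.7 (median 54.2), overlapping, with a difference of 0.35 (SE 0.09, adjusted p = 0.0117). Top1mt stood at 0.33 (SE 0.09, adjusted p = 0.0324), and Sirt1 at -0.23 (SE 0.07, adjusted p = 0.0483). Against single strains without exercise, Polg was higher than in ND5 (0.41, adjusted p = 0.0257), where 2.15% of all genes were higher and 2.53% lower. No member was called against ND6 (0.114% and 0.127% of all genes, 1123 at an unadjusted p under 0.05) or CO1 (0.191% and 0.223%, 1595 at an unadjusted p under 0.05). ND5 hearts had 2 members lower than CO1 hearts, Tfb2m (-0.47, adjusted p = 0.0467) and Elac2 (-0.42, adjusted p = 0.0316), where 1.92% of all genes were lower and 9.27% higher, including 9 of 11 connective tissue markers and 6 of 7 adipocyte markers. Whether those cells carry the difference was not tested.

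The relation of members to the mtDNA share within groups was measured as a slope in each tissue, and the slopes were not tested between tissues. The slope is the log2 change of a gene for each unit of log2 ratio of mtDNA-encoded to other counts, taken as the deviation of a library from its group mean. In soleus 3 members were called with a slope above 0 and none below, against 7.44% and 10.2% of all genes, and the median member slope was 0.10. The 3 were Sirt3 (0.49, SE 0.14, edgeR adjusted p = 0.0100), Slirp (0.45, SE 0.12) and Hsd17b10 (0.35, SE 0.09), a count near the share of all genes. With the fast-fibre and connective sums as covariates, 3 were called above and 5 below 0, against 6.07% and 8.55% of all genes. The count above 0 again lies near the share of all genes, and the median member slope was -0.13. In heart 28 members were called with a slope above 0 and 2 below, against 27.8% and 37.8% of all genes, and the median slope was 0.42 over the members and -0.09 over all genes. All 8 coactivators and nuclear receptors, all 5 packaging and transcription genes and all 9 RNA stability and processing genes were among the 28. Lrpprc had a slope of 1.31 (SE 0.08, adjusted p = 3.53e-17), Ppargc1a of 1.53 (SE 0.36), Hsd17b10 of 0.85 (SE 0.10), Fastk and Fastkd2 of 0.84 each (SE 0.06), Polrmt of 0.69 (SE 0.07), Tfb2m of 0.62 (SE 0.05) and Tfam of 0.54 (SE 0.05). Of the 6 replication genes, Polg (0.29) and Ssbp1 (0.29) were called above 0, a share near that of all genes. Prkaa1 (-0.39, SE 0.07) and Tk2, the mitochondrial thymidine kinase (-0.52, SE 0.13), were called below 0. Without the heart of mouse B80, 27 members were called above and 2 below 0, against 29.7% and 32.8% of all genes.

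Cell-type markers of the heart libraries moved with the same share. All 6 atrial markers had slopes below 0 (median -6.38), as had 9 of 11 connective tissue markers, 7 of 7 adipocyte and 6 of 6 erythroid markers, while all 6 ventricular markers had slopes above 0. In the 22 libraries with atrial markers under 500 CPM, the mtDNA share was 26.3% to 39.4% (median 28.6%), Lrpprc 195 to 278 CPM (median 225), Tfam 33.7 to 44.4 CPM (median 38.2) and Ppargc1a 67.0 to 674 CPM (median 439). In the other 26 the share was 9.23% to 34.7% (median 23.5%), Lrpprc 48.5 to 255 CPM (median 125), Tfam 17.9 to 43 CPM (median 29.4) and Ppargc1a 18.4 to 551 CPM (median 143). The ranges of both sets overlapped for all 3 genes. With the atrial and connective sums as covariates, 8 members were called above 0 and none below, namely Lrpprc (1.08), Hsd17b10 (0.69), Fastk (0.59), Fastkd2 (0.59), Polrmt (0.56), Tfb2m (0.42), Rxra (0.31) and Tfam (0.26), whereas Ppargc1a was at 0.68 (adjusted p = 0.580). In that fit 9.22% of all genes were called above 0 and 4.06% below. Within the 22 libraries alone no gene had a called slope (edgeR, 2006 genes at an unadjusted p under 0.05). There the median member slope was -0.30, and the uncalled estimates of Lrpprc (-0.29), Tfam (-0.40), Polrmt (-0.80) and Ppargc1a (-6.76) had the opposite sign to those over all hearts. The groups behind them held only 2 to 5 libraries each, so these signs are not shown to differ.

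**Figure D5:**
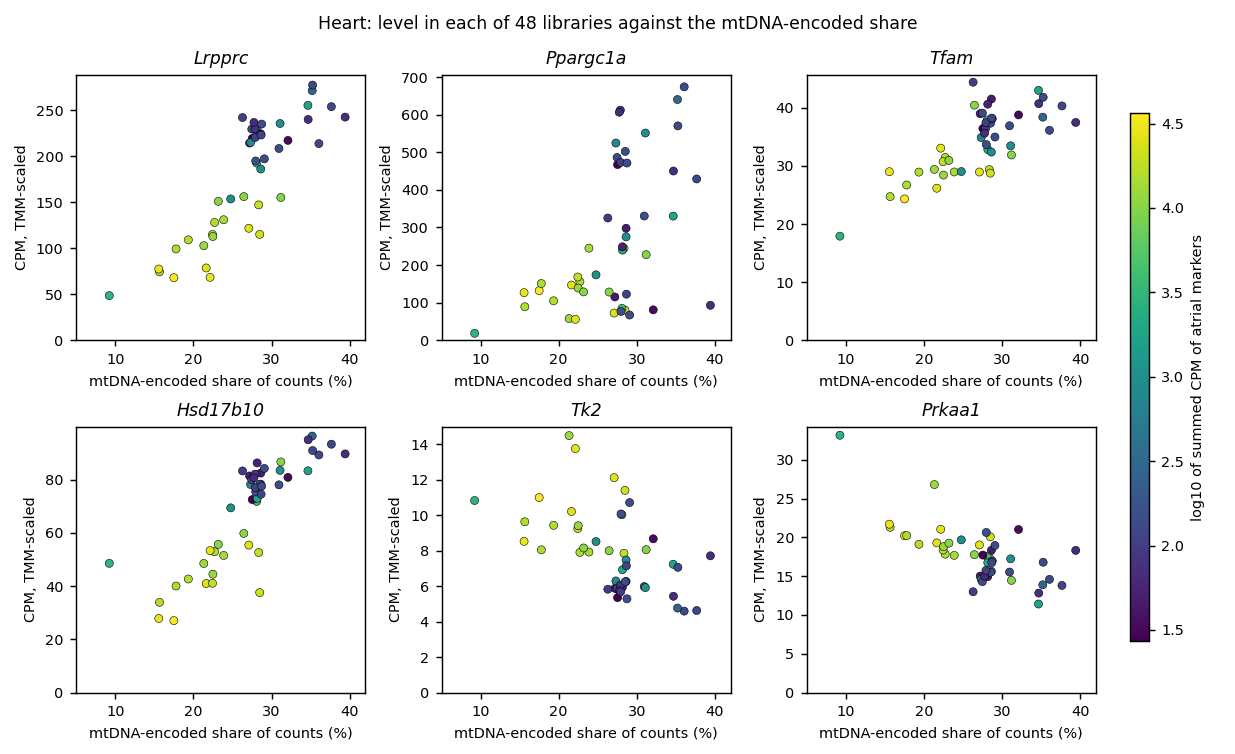
TMM-scaled CPM of Lrpprc, Ppargc1a, Tfam, Hsd17b10, Tk2 and Prkaa1 in 48 heart libraries against the percent of counts from mtDNA-encoded genes, coloured by the log10 summed CPM of 6 atrial markers. Lrpprc runs from 48.5 CPM at a share of 9.23% to 278 CPM, and the libraries with many atrial transcripts gather at low shares and low Lrpprc.

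Averaged over strains and arms, soleus and heart differed in most members, 22 being higher and 7 lower in soleus, against 40.5% and 46.3% of all genes. In either direction 86.8% of all genes were called, so such a difference is not particular to the members. With TMM on counts without mtDNA-encoded genes, 20 were higher and 7 lower, against 38.8% and 48.2% of all genes. The nuclear receptors Esrrg (1.80, SE 0.09) and Ppara (1.03, SE 0.11), Top1mt (1.11, SE 0.04), Slirp (0.91, SE 0.04), Esrrb (0.74, SE 0.08) and Tefm (0.68, SE 0.05) led those higher in soleus. Higher in heart were the nuclease Mgme1 (-0.92, SE 0.05), Tk2 (-0.82, SE 0.07) and Polg (-0.49, SE 0.03), with Ppargc1b, Dguok, Sirt1 and Rrm2b at -0.27 to -0.08. All 3 nucleotide supply genes were thus lower in soleus. Of the 5 packaging and transcription genes, Tfam (0.41, SE 0.04), Tfb1m and Tefm were higher in soleus, and Tfb2m (-0.06) and Polrmt (0.01) were not called. The ANT1 difference in non-exercised mice differed between tissues for 6 members, against 5.53% of all genes in the direction of soleus and 5.58% in that of heart. It was larger in soleus for Hsd17b10 by 0.67 (SE 0.22), Sirt3 by 0.55 (SE 0.17), Fastkd1 by 0.54 (SE 0.19), Slirp by 0.43 (SE 0.13) and Ssbp1 by 0.39 (SE 0.10), with edgeR adjusted p-values from 0.00713 to 0.0473. Sirt1 went the other way by -0.48 (SE 0.12, adjusted p = 0.00284), being lower in ANT1 soleus (-0.39) and at 0.12 (SE 0.07) in ANT1 heart without exercise. In exercised mice Sirt1 was called lower in ANT1 in both tissues (-0.37 and -0.23). For the remaining 31 members, Ppargc1a, Tfam, Polrmt and Lrpprc among them, no difference between the tissues in the ANT1 effect was called.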

How the data were processed

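Poly(A)-selected RNA of soleus and heart was sequenced, per the labels. STAR 2.5.2b, RSEM 1.2.28 and the build mm10 are named in the submitters' processing notes. The authors deposited expected counts and FPKM per gene, with no further normalization stated there. Whether strand was kept is not stated. Of the columns for either tissue, 12 matched no sample label and were not used, and the comparisons with the control strain that had been planned were not made. Members and gene lists were chosen with earlier results of these data known.

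Expected counts were rounded, filtered by group (filterByExpr) and scaled by TMM. All 8 groups of a tissue entered a single fit (R 4.3.3, edgeR 4.0.16, quasi-likelihood F test), Benjamini-Hochberg adjustment ran over all genes tested, and a call is an adjusted p under 0.05. SE is the log2 difference divided by the square root of F. DESeq2 1.42.0, limma 3.58.1 (voom), other scalings and filters, marker covariates and leaving out each library were alternatives. The mtDNA shares were compared by exact permutation (Python 3.11.15), and the fits were tested on simulated data. Libraries come from separate mice within a tissue, by their codes. There are 19 codes present in both tissues, and the consensus correlation of libraries with the same code was 0.0376.

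Values per library are given for Ppargc1a, Esrra, Nrf1, Gabpa, Tfam, Tfb2m, Polrmt and Lrpprc whatever their change, and for the 3 called members with the smallest p in each direction of the main comparisons. Of each list of other pathway genes, the rule names the 2 called genes of lowest p on either side of 0. Other genes named with values were chosen after these were seen.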

Additional observations from a re-analysis of the deposited data

Results flagged for a closer look

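Among 240 sets of 6 libraries, 18 held a library far from the other 5 by Dixon's criterion, where chance gives about 1 in 20, or 12. The mtDNA share in soleus was 47.6% in non-exercised ANT1 mouse A82 (others 35.8% to 39.2%) and 20.2% in exercised ND5 mouse B80 (others 17.8% to 18.6%). Ppargc1a in soleus was at 194 CPM in non-exercised ND5 mouse B10 (others 48.6 to 79.0) and at 339 in exercised CO1 mouse E78 (others 141 to 214). Exercised ND6 mouse I50 was high in soleus for Tfam at 47.9 CPM (others 32.1 to 37) and for Polrmt at 21.3 (others 16.1 to 17.6). Sirt1 in exercised soleus was at 6.97 CPM in ANT1 mouse A43 (others 10.6 to 12.2) and at 16.8 in CO1 mouse E1 (others 12.2 to 13.9). Prkaa2 in non-exercised soleus was at 138 CPM in ND6 mouse I85 (others 171 to 186) and at 179 in CO1 mouse E53 (others 152 to 159).

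In heart, non-exercised CO1 mouse E75 was low for Ppargc1a at 76.6 CPM (others 486 to 612), Fastk at 141 (others 158 to 165) and Sirt3 at 22.4 (others 27.5 to 28.9). Non-exercised ND5 hearts held Ppargc1a at 467 CPM in mouse B70 (others 18.4 to 156) and Esrra at 32.5 in mouse B80 (others 87.3 to 118). Hsd17b10 was at 55.7 CPM in exercised CO1 mouse E50 (others 74.5 to 84.2), Gabpa at 50.7 in exercised ANT1 mouse A71 (others 43.1 to 44.2) and Sirt1 at 19.8 in exercised ND5 mouse B11 (others 16.6 to 17.4).

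The ANT1 difference in soleus minus that in heart passed edgeR's test for Sirt1 (-0.48), Hsd17b10 (0.67), Sirt3 (0.55), Fastkd1 (0.54), Slirp (0.43) and Ssbp1 (0.39).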

How the results depend on the processing

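In non-exercised soleus, the members higher and lower in ANT1 numbered 18 and 5 with DESeq2, 18 and 4 with TMM without mtDNA-encoded genes, 15 and 4 without the filter, 17 and 4 from the compared groups alone, 9 and 7 with marker covariates, and 1 and 29 without a scaling factor. In the same order, the shares of all genes were 23.2% and 24.5%, 23.9% and 23.9%, 10.7% and 11.3%, 21.6% and 26.1%, 16.5% and 17.8%, and 2.73% and 83.1%. Leaving out each library gave 17 to 19 higher and 2 to 7 lower, against 20.5% to 22.5% and 21.2% to 25.7% of all genes. Without a scaling factor the direction reversed for Esrra (-0.016), Lrpprc (-0.020), Fastk (-0.028), Fastkd2 (-0.14), Fastkd1 (-0.17), Tefm (-0.21), Slirp (-0.24), Ssbp1 (-0.27), Polrmt (-0.32), Polg2 (-0.32), Top1mt (-0.33), Tfam (-0.42), Tfb2m (-0.45), Elac2 (-0.48) and Pnpt1 (-0.48), where the median of all genes was -0.69. With marker covariates Tfb2m was at -0.020. In heart, the members higher in ANT1 numbered 2 with the atrial covariate, 1 with the atrial and connective covariates and 0 to 1 on leaving out each library (1 without ANT1 A63, ANT1 A80 or ND5 B5), and those lower 5 without a scaling factor and 2 in the 22 libraries with few atrial transcripts. In the same order, 3.19%, 3.74% and 0.233% to 1.06% of all genes were higher, and 8.75% and 1.70% lower. The soleus slope on the mtDNA share gained 5 members below 0 with marker covariates, against 8.55% of all genes. The heart slope had 8 members above and 0 below 0 with covariates, against 9.22% and 4.06% of all genes. In the 22 libraries it had 0 and 0, against 0% of all genes. There the uncalled estimates of Ppargc1a (-6.76), Esrra (-0.87), Polrmt (-0.80), Fastkd2 (-0.59), Fastk (-0.53), Tfam (-0.40), Lrpprc (-0.29), Prkaa1 (1.76) and Tk2 (2.12) had the opposite sign. Tk2 was at 0.074 with covariates. Beyond the scaling and sample choices named, the cause was not tested. With the mouse code as replicate block, limma voom gave 23 members higher and 7 lower in soleus than in heart, and 4 and 1 for the ANT1 difference between tissues, with the same counts without the block. With the block, the shares of all genes were 41.3% and 45.2%, and 4.20% and 3.45%. With a library left out, single members were followed only if named whatever their change or already called in the full fit. Of these values, 777 stayed on their side of the threshold, called or not, and 27 lost a call. A call gained by any other member could not enter these counts. They include heart without exercise, where the full fit called no member, and the heart slope without B80. Shares from mRNAs only changed no call. The training fit on the compared groups alone is the same fit and was not run again. The marker covariates on slopes, both covariates in heart, the 22 libraries, the fit without B80 and the tissue comparison without mtDNA genes were chosen after seeing the data.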
